A study of Mus musculus with 10 samples.

Results

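A set of 36 genes of the T-cell, natural killer (NK) cell and innate lymphoid programs was followed in mouse bone marrow cells of 4 *Pax5* genotypes, to ask how far genes of other lymphoid lineages are expressed when Pax5 is absent or mutated. The genes were taken by name from a list, no threshold on their values being applied, and all 36 are present among the 25579 genes of the TPM files. TPM is a read count scaled for gene length and then for all reads of a library. The genes fall into 6 roles, with 8 genes of the T-cell receptor complex and its signalling, 7 T-cell surface proteins and coreceptors, 9 transcription factors, 3 NK receptors, 4 cytotoxic effectors and 5 cytokines, chemokines or their receptors. In at least 1 library, 25 of them reached 1 TPM. The other 11 stayed under 1 TPM in every library and were not tested.

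Pax5 is the transcription factor that commits lymphoid progenitors to the B-cell lineage. It activates genes of the B-cell program and represses genes of other lineages. T cells are recognized by the T-cell receptor with its CD3 and CD247 (zeta) chains, whose signal is passed on by the kinases Lck and Zap70 and the adaptor Lat, and they are specified by Tcf7, Gata3 and Bcl11b. NK and innate lymphoid cells share several of these factors but depend on Id2, Tox, Eomes or Tbx21, and carry receptors of the Klr family, granule proteins and receptors for cytokines such as IL-18.

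RNA-seq comprised 8 libraries of bone marrow cells from C57BL/6 mice, 2 per genotype, sorted by flow cytometry without culture. *Pax5* +/+ mice carry intact alleles, *Pax5* +/- mice a null allele beside an intact allele, and *Pax5* R31Q/- mice a null allele beside an allele for Pax5 with the R31Q exchange in its DNA-binding paired domain, made by gene editing. In *Pax5* fl/fl Vav-Cre mice both *Pax5* alleles are floxed and Cre is driven by *Vav* sequences, which are active in all blood cell lineages, so that deletion is not limited to B-lineage cells. The first 3 genotypes are labelled pro-B cells, sorted as B-lineage cells by their surface markers, and the *Pax5* fl/fl Vav-Cre samples are labelled progenitor cells. Their sort gate and the age of the mice are not given in the sources used here, and the genotype cannot be told apart from this difference in cell label. Pax5 ChIP-seq peaks came from 1 library of cultured *Rag2*-/- pro-B cells with wild-type Pax5 and 1 library of cultured *Pax5* R31Q/- pro-B cells. The description of the latter writes *Rag2*(R31Q/-), and the listed genotype was followed.

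The depth on genes was 21625407 reads in replicate 1 of *Pax5* fl/fl Vav-Cre and between 29916566 and 34488454 in the other 7 libraries. Of 14 pro-B cell genes 10 were lower and 1 was higher in *Pax5* fl/fl Vav-Cre than in *Pax5* +/+ cells. The *Pax5* gene itself had 1242 and 1409 TPM in the *Pax5* fl/fl Vav-Cre libraries against 418 and 444 TPM in *Pax5* +/+, and a value summed over the whole gene does not show whether the floxed exon was deleted. The *Pax5* fl/fl Vav-Cre libraries stood apart from each other more than those of another genotype did, with a Spearman correlation across genes of 0.962 against 0.971 to 0.975 (genes are not independent replicates). Of 13008 tested genes above 0 in both, 10.2% differed by more than 2-fold between them. The labels do not say whether the libraries of a genotype came from separate mice, so the p-values measure the spread between these samples, which may be technical.

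In *Pax5* fl/fl Vav-Cre cells, 19 of the 25 tested genes were higher than in *Pax5* +/+ pro-B cells and 1, *Prf1*, was lower, by limma at an adjusted p under 0.05, where 16.2% of all 13436 tested genes were higher and 19.7% lower. The median difference of the 25 genes in log2(TPM + 1) was 1.57 against -0.11 for all tested genes. For 20 of them both *Pax5* fl/fl Vav-Cre libraries lay above all 6 others, which held for 20.9% of all tested genes. *Trat1*, *Il18r1*, *Cd28*, *Icos*, *Gata3*, *Zbtb16*, *Il2rb*, *Xcl1* and *Cd8a* reached 1 TPM in *Pax5* fl/fl Vav-Cre libraries alone. They were therefore tested only because they were high there. All but *Cd8a* are among the 19, so these counts and the median were set in part by the filter. With the added conditions of a difference over 3-fold on the log2(TPM + 1) scale and a mean over 5 TPM in a genotype, 8 genes were called higher (*Trat1*, *Il18r1*, *Cd247*, *Cd96*, *Nkg7*, *Id2*, *Lck* and *Tox*) and 0 lower, against 3.07% higher and 3.82% lower of all tested genes. Without replicate 1 or replicate 2 of *Pax5* fl/fl Vav-Cre, 10 genes were called in either case, the remaining library being assumed to vary like those of the other genotypes. *Prf1* was also called, as lower, with a pseudocount of 0.1, a fold threshold of 2 or limma-voom on recovered reads. Summed over the 36 genes, the level was 202 to 332 TPM in the 6 pro-B libraries and 743 and 842 TPM in the *Pax5* fl/fl Vav-Cre libraries. In such bulk samples, more cells of a type and more RNA per cell cannot be told apart.

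**Figure D1:**
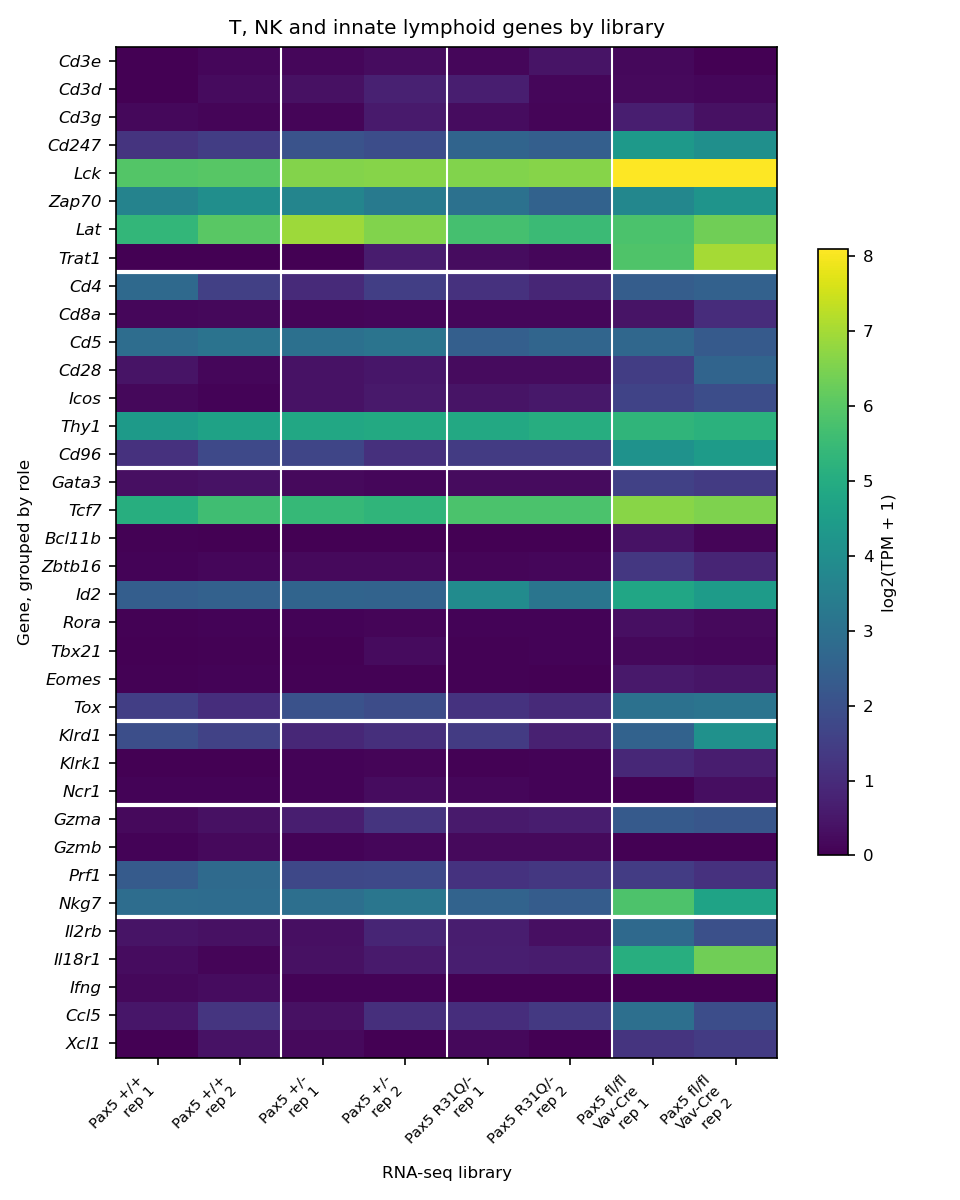
Level of each of the 36 genes, as log2(TPM + 1) by colour, in the 8 RNA-seq libraries (columns, 2 replicates per genotype), with genes in rows grouped by role and white lines between roles and genotypes. *Lck*, *Lat*, *Tcf7* and *Thy1* are bright in every library, *Trat1* and *Il18r1* are bright in the *Pax5* fl/fl Vav-Cre libraries alone, and the CD3 chains stay dark throughout, at 0.666 TPM or less.

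Within the T-cell receptor complex, the signal-transducing zeta chain was expressed without the CD3 chains. *Cd3e* had 0 and 0.111 TPM in *Pax5* +/+, 0.101 and 0.203 in *Pax5* +/-, 0.0985 and 0.353 in *Pax5* R31Q/- and 0.137 and 0 in *Pax5* fl/fl Vav-Cre libraries, that is at most 7 reads in a library. *Cd3d* ranged from 0 to 0.666 TPM over the 8 libraries and *Cd3g* from 0.0718 to 0.585 TPM, with at most 12 and 7 reads. These chains, without which a T-cell receptor is not carried to the surface, were thus at or near the limit of detection in every genotype. They were not tested for a difference between genotypes.

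*Cd247*, which encodes the zeta chain (chromosome 1, 165779952 to 165871153), had 1.34 and 1.77 TPM in *Pax5* +/+, 3.18 and 2.74 in *Pax5* +/- and 5.07 and 4.50 in *Pax5* R31Q/- libraries. In *Pax5* fl/fl Vav-Cre libraries it had 19.9 and 15.3 TPM. The genotypes did not overlap, and the mean was 11.3-fold higher in *Pax5* fl/fl Vav-Cre than in *Pax5* +/+ cells. The difference in log2(TPM + 1) was 2.86 (standard error 0.19, adjusted p = 4.92e-05 from limma). *Lck*, the Src-family kinase that starts receptor signalling (chromosome 4, 129548344 to 129573641), was the most abundant of the 36 genes in 6 of the 8 libraries. *Lat* was higher in replicate 2 of *Pax5* +/+ and replicate 1 of *Pax5* +/-. The *Lck* level was 60.4 and 63.4 TPM in *Pax5* +/+, 96.1 and 97.4 in *Pax5* +/- and 94.4 and 98.7 in *Pax5* R31Q/- libraries. It reached 273 and 271 TPM in *Pax5* fl/fl Vav-Cre libraries. The values of a genotype lay close together, and the *Pax5* fl/fl Vav-Cre mean was 4.39-fold that of *Pax5* +/+ cells (difference in log2(TPM + 1) 2.12, standard error 0.10, adjusted p = 1.04e-05 from limma).

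*Trat1*, an adaptor that associates with the T-cell receptor complex, showed the steepest difference of the set. No read was counted in either *Pax5* +/+ library or in replicate 1 of *Pax5* +/-, and the other pro-B libraries held 0.539, 0.210 and 0.107 TPM (5, 2 and 1 reads). The *Pax5* fl/fl Vav-Cre libraries had 57.9 and 127 TPM, from 397 and 1231 reads. With 3 reads taken as the floor over both *Pax5* +/+ libraries (0.167 TPM), the mean of 92.6 ± 49.1 TPM (SD, n = 2) in *Pax5* fl/fl Vav-Cre was at least 556-fold higher (difference in log2(TPM + 1) 6.44, standard error 0.37, adjusted p = 2.4e-05 from limma). The replicates of *Pax5* fl/fl Vav-Cre differed 2.20-fold from each other, which is small beside their distance from the other 6 libraries. The gene lies on the minus strand of chromosome 16, 48730774 to 48810547, with *Gm8670* on the same strand within it. A start region is shown because no wild-type Pax5 peak lay in the gene or within 10 kb of it. The 250 bases before an annotated start inside the gene (chr16:48772063-48772312, minus strand, GRCm38), chosen after the values were seen, held neither strand of the Pax5 words defined with the peaks:
Trat1 promoter: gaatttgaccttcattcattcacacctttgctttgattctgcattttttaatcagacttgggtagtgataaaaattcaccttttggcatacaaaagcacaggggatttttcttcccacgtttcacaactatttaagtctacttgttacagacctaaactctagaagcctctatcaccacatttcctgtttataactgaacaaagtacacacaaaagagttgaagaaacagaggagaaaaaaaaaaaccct

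*Zap70* and *Lat*, the kinase and the adaptor that act after Lck, were already expressed in *Pax5* +/+ pro-B cells and did not pass the test in *Pax5* fl/fl Vav-Cre cells. *Zap70* had 11.4 and 14.9 TPM in *Pax5* +/+, 11.9 and 9.06 in *Pax5* +/-, 7.07 and 4.89 in *Pax5* R31Q/- and 12.4 and 17.1 in *Pax5* fl/fl Vav-Cre libraries. *Lat* had 40.2 and 64.4 TPM in *Pax5* +/+, 119 and 93.4 in *Pax5* +/-, 51.0 and 44.5 in *Pax5* R31Q/- and 55.5 and 79.5 in *Pax5* fl/fl Vav-Cre libraries. For both genes the *Pax5* +/+ and *Pax5* fl/fl Vav-Cre libraries overlapped, and the lowest *Zap70* values were those of *Pax5* R31Q/- and the highest *Lat* values those of *Pax5* +/-.

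Of the 7 surface proteins and coreceptors, 4 rose in *Pax5* fl/fl Vav-Cre cells (*Cd96*, *Cd28*, *Icos* and *Thy1*) and *Cd4*, *Cd8a* and *Cd5* did not pass the test. *Cd96*, an immunoglobulin-superfamily receptor of T and NK cells (chromosome 16, 46035652 to 46120248), had 1.22 and 2.47 TPM in *Pax5* +/+, 2.23 and 1.18 in *Pax5* +/- and 1.65 and 1.65 in *Pax5* R31Q/- libraries. It had 16.5 and 20.6 TPM in *Pax5* fl/fl Vav-Cre libraries. The 6 pro-B libraries overlapped, and the mean was 18.5 TPM in *Pax5* fl/fl Vav-Cre against 1.85 TPM in *Pax5* +/+ cells (difference in log2(TPM + 1) 2.81, standard error 0.28, adjusted p = 0.000279 from limma). *Thy1*, a glycolipid-anchored surface protein of T cells and progenitors, had the highest level of this role, with 20.5 and 24.3 TPM in *Pax5* +/+, 27.8 and 29.4 in *Pax5* +/- and 28.3 and 31.7 in *Pax5* R31Q/- libraries. Its level was 38.6 and 35.3 TPM in *Pax5* fl/fl Vav-Cre libraries. It was thus present in every genotype, and the rise was 1.65-fold (difference in log2(TPM + 1) 0.70, adjusted p = 0.00651 from limma). It missed the threshold with only these 2 genotypes in the fit (adjusted p = 0.054). The costimulatory receptors *Cd28* and *Icos* rose from means of 0.222 and 0.091 TPM to 3.41 and 2.43 TPM, both from at most 20 reads per *Pax5* +/+ library.

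*Cd4* and *Cd8a*, the coreceptors of mature T cells, remained weak. *Cd4* had 5.87 and 1.88 TPM in *Pax5* +/+, 0.955 and 1.86 in *Pax5* +/-, 1.21 and 0.833 in *Pax5* R31Q/- and 4.23 and 4.75 in *Pax5* fl/fl Vav-Cre libraries. The *Pax5* +/+ replicates, 3.12-fold apart, thus enclosed both *Pax5* fl/fl Vav-Cre values. *Cd8a* had 0.115 and 0.129 TPM in *Pax5* +/+, 0.0706 and 0.0943 in *Pax5* +/-, 0.0917 and 0.0939 in *Pax5* R31Q/- and 0.350 and 1.04 in *Pax5* fl/fl Vav-Cre libraries (11 and 46 reads in the latter). It lay above all other libraries in *Pax5* fl/fl Vav-Cre cells but missed the threshold (adjusted p = 0.0849 from limma), which it passed in limma-voom on recovered reads (adjusted p = 0.012). *Cd5* had 3.93 to 7.67 TPM over all libraries.

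The transcription factors divided into 5 genes that rose in *Pax5* fl/fl Vav-Cre cells (*Id2*, *Tox*, *Tcf7*, *Gata3* and *Zbtb16*) and 4 that stayed under 1 TPM in every library (*Bcl11b*, *Rora*, *Tbx21* and *Eomes*). *Tcf7*, the HMG-box factor TCF-1 that starts the T-cell program downstream of Notch, had the highest level of this role, with 32.8 and 47.8 TPM in *Pax5* +/+, 41.9 and 38.1 in *Pax5* +/- and 54.8 and 55.1 in *Pax5* R31Q/- libraries. Levels of 101 and 92.1 TPM were seen in *Pax5* fl/fl Vav-Cre libraries. It was therefore well expressed in pro-B cells and 2.40-fold higher in *Pax5* fl/fl Vav-Cre cells (difference in log2(TPM + 1) 1.27, standard error 0.18, adjusted p = 0.00131 from limma). *Id2*, an inhibitor of E proteins required for innate lymphoid and NK cells (chromosome 12, 25093799 to 25096092), had 4.41 and 4.75 TPM in *Pax5* +/+, 5.04 and 4.99 in *Pax5* +/- and 13.9 and 7.85 in *Pax5* R31Q/- libraries. In the *Pax5* fl/fl Vav-Cre libraries 26.8 and 20.6 TPM were measured. It was 5.18-fold higher in *Pax5* fl/fl Vav-Cre than in *Pax5* +/+ cells (difference in log2(TPM + 1) 2.14, standard error 0.26, adjusted p = 0.000645 from limma), with the *Pax5* R31Q/- libraries between (adjusted p = 0.0731 against *Pax5* +/+).

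*Tox*, an HMG-box factor of developing T and innate lymphoid cells (chromosome 4, 6686353 to 6991557), had 1.81 and 1.07 TPM in *Pax5* +/+, 3.10 and 2.66 in *Pax5* +/- and 1.28 and 0.953 in *Pax5* R31Q/- libraries. Replicates 1 and 2 of *Pax5* fl/fl Vav-Cre had 7.13 and 7.72 TPM. The *Pax5* fl/fl Vav-Cre mean was 5.14-fold higher than that of *Pax5* +/+ (difference in log2(TPM + 1) 1.80, standard error 0.21, adjusted p = 0.000519 from limma). *Gata3*, which specifies T and innate lymphoid cells, rose from a mean of 0.286 to 1.79 TPM, and *Zbtb16*, the PLZF factor of innate-like T cells, from 0.0800 to 1.14 TPM, so that both stayed low in absolute terms. With 2 genotypes in the fit, *Zbtb16* missed the threshold (adjusted p = 0.0547 from limma). *Bcl11b*, needed for T-cell commitment, reached 0.315 and 0.0893 TPM in the *Pax5* fl/fl Vav-Cre libraries (25 and 10 reads) and at most 3 reads in any other library. *Eomes*, a T-box factor of NK cells, had 18 and 19 reads in the *Pax5* fl/fl Vav-Cre libraries and 1 to 3 in the others, and *Tbx21*, the other T-box factor, at most 6 reads anywhere.

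For *Tcf7*, *Gata3* and *Id2*, sequence under a Pax5 peak found in both ChIP-seq libraries is shown, since these are the factors that rose and carried such a peak at or near a start site. The *Tcf7* peak (chr11:52283202-52283556, GRCm38) covered the start site, and the 146 bases of its central 300 that lie on the 5′ side of the start are chr11:52283384-52283529 on the minus strand. The *Gata3* peak (chr2:9879581-9879876, minus strand) ended 981 bases before an annotated start, in an intron of a longer transcript. A nearer wild-type *Gata3* peak, with its midpoint 335 bases after a start, overlapped no *Pax5* R31Q/- peak and is not shown. The *Id2* peak, with its midpoint at -2719 bases from the start, was chosen after its values were seen. Its central 300 bases (chr12:25098662-25098961, minus strand) held the word GTCACGC, in capitals, which is the reverse complement of GCGTGAC.
Tcf7: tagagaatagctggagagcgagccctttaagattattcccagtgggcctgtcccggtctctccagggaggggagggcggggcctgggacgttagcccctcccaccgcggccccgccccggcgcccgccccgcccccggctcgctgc
Gata3: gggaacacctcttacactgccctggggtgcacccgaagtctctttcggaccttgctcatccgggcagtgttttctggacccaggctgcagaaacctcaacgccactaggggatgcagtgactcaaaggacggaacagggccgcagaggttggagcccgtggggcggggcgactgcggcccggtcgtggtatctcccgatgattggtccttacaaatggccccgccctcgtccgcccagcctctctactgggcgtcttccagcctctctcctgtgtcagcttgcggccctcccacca
Id2: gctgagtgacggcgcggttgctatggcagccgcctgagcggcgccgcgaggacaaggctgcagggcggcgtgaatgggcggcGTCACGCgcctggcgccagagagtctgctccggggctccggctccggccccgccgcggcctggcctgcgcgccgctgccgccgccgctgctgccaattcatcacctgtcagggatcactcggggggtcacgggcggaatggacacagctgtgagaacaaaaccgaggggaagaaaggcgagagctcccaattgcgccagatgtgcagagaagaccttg

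Of the 3 NK receptors, *Klrd1* alone was abundant enough to be tested. It encodes CD94, the partner chain of the NKG2 receptors, and had 2.82 and 2.04 TPM in *Pax5* +/+, 0.850 and 1.11 in *Pax5* +/- and 1.66 and 0.678 in *Pax5* R31Q/- libraries. It had 4.83 and 16.1 TPM in replicates 1 and 2 of *Pax5* fl/fl Vav-Cre. Both *Pax5* fl/fl Vav-Cre values lay above those of the other 3 genotypes, which overlapped in part, but the *Pax5* fl/fl Vav-Cre replicates were 3.33-fold apart. The rise was a difference in log2(TPM + 1) of 1.55 (standard error 0.47, adjusted p = 0.0367 from limma). It no longer passed when any library other than replicate 1 of *Pax5* fl/fl Vav-Cre was left out, at adjusted p-values from 0.057 to 0.163. *Klrk1*, the activating receptor NKG2D, had 0.865 and 0.571 TPM in *Pax5* fl/fl Vav-Cre libraries (29 and 27 reads) against at most 4 reads elsewhere. *Ncr1*, the receptor NKp46 that marks NK cells, had at most 5 reads in any library.

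Among the cytotoxic effectors, *Nkg7* and *Gzma* rose, *Prf1* fell and *Gzmb* was not detected in *Pax5* fl/fl Vav-Cre cells. *Nkg7*, a granule membrane protein of NK and cytotoxic T cells (chromosome 7, 43437138 to 43438246), had 6.45 and 6.34 TPM in *Pax5* +/+, 6.70 and 8.08 in *Pax5* +/- and 5.03 and 4.07 in *Pax5* R31Q/- libraries. Levels in *Pax5* fl/fl Vav-Cre libraries were 56.2 and 24.7 TPM. Both *Pax5* fl/fl Vav-Cre values exceeded all others, 6.32-fold on average over *Pax5* +/+, although they differed 2.27-fold between themselves (difference in log2(TPM + 1) 2.37, standard error 0.34, adjusted p = 0.00146 from limma). *Gzma*, the protease granzyme A, rose from 0.163 and 0.274 TPM in *Pax5* +/+ to 3.85 and 3.53 TPM in *Pax5* fl/fl Vav-Cre libraries. *Prf1*, the pore-forming perforin, moved in the other direction, with 4.02 and 6.00 TPM in *Pax5* +/+, 2.37 and 2.48 in *Pax5* +/- and 1.29 and 1.47 in *Pax5* R31Q/- libraries. The values in *Pax5* fl/fl Vav-Cre libraries were 1.70 and 1.21 TPM. It was highest in *Pax5* +/+ cells and fell by 1.28 on the log2(TPM + 1) scale in *Pax5* fl/fl Vav-Cre cells (standard error 0.21, adjusted p = 0.00312 from limma). *Gzmb*, granzyme B, had no read in either *Pax5* fl/fl Vav-Cre library and 1 to 3 reads in each of the others.

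The cytokine and chemokine group held the second steepest difference. *Il18r1*, the ligand-binding chain of the IL-18 receptor (chromosome 1, 40465552 to 40500854), had 0.210 and 0.0842 TPM in *Pax5* +/+ (14 and 5 reads), 0.293 and 0.494 in *Pax5* +/- and 0.601 and 0.538 in *Pax5* R31Q/- libraries. In *Pax5* fl/fl Vav-Cre libraries it reached 33.0 and 80.3 TPM (1582 and 5428 reads). The mean of 56.7 ± 33.5 TPM (SD, n = 2) in *Pax5* fl/fl Vav-Cre cells was 385-fold that of *Pax5* +/+ cells, and the difference in log2(TPM + 1) was 5.52 (standard error 0.37, adjusted p = 4.43e-05 from limma). The gene of the second chain of this receptor, *Il18rap*, was not among the 36 genes and is given with the other NK genes. *Il2rb*, the shared beta chain of the IL-2 and IL-15 receptors, rose from 0.347 and 0.299 TPM in *Pax5* +/+ to 5.81 and 2.94 TPM in *Pax5* fl/fl Vav-Cre libraries. The chemokines *Ccl5* and *Xcl1* rose to 6.76 and 2.80 TPM and to 1.35 and 1.64 TPM (7 and 12 reads for *Xcl1*). Their *Pax5* +/+ levels were 0.406 and 1.37 TPM and 0 and 0.311 TPM. The rise of *Ccl5* lost its significance without replicate 1 of *Pax5* +/+ (adjusted p = 0.129) or of *Pax5* fl/fl Vav-Cre (adjusted p = 0.11). *Ifng*, the effector cytokine of NK and type 1 T cells, had no read in the *Pax5* R31Q/- and *Pax5* fl/fl Vav-Cre libraries and 1 to 3 reads in each *Pax5* +/+ and *Pax5* +/- library.

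The start region of *Il18r1* carried a Pax5 peak in the *Pax5* R31Q/- library alone, with its midpoint 47 bases after the nearest of 6 annotated starts. The 250 bases before the first of these starts (chr1:40465302-40465551, plus strand, GRCm38), chosen after the values were seen, held no Pax5 word:
Il18r1 promoter: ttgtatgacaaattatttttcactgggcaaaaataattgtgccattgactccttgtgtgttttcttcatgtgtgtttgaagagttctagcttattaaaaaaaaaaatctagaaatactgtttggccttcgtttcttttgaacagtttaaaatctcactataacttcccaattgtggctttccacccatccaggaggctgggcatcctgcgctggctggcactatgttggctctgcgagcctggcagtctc

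**Figure D2:**
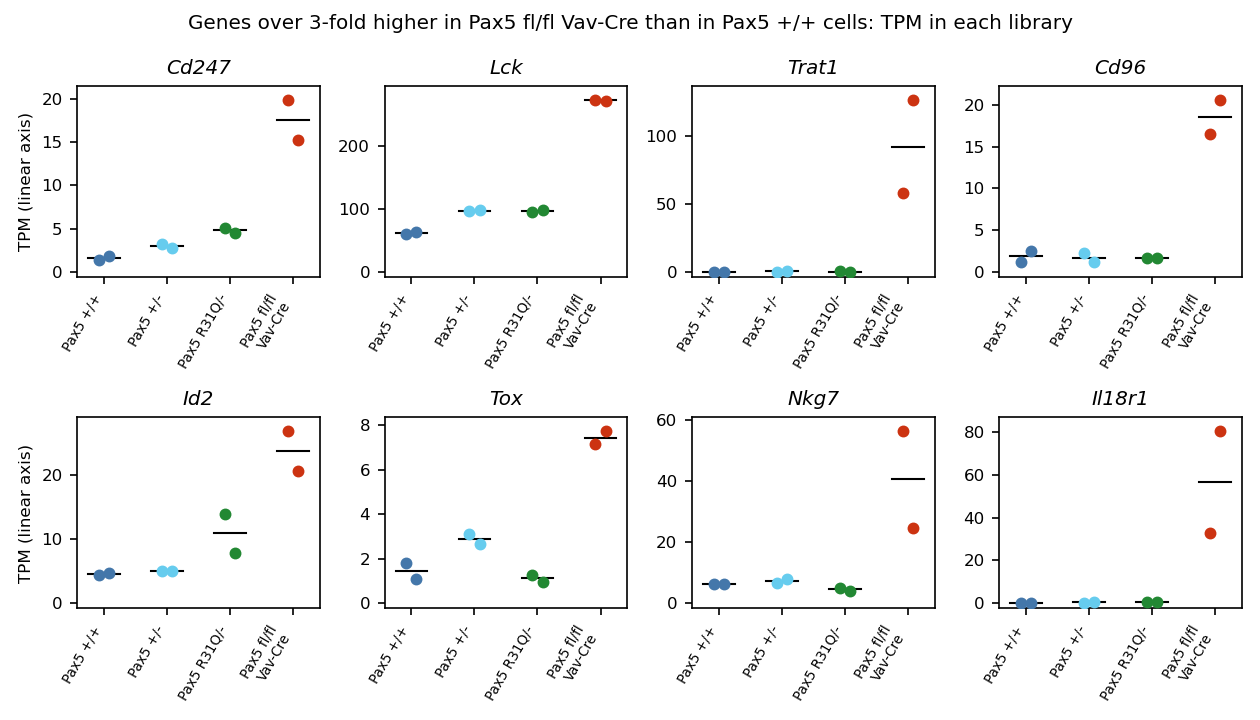
TPM (linear axis) of the 8 genes called higher in *Pax5* fl/fl Vav-Cre than in *Pax5* +/+ cells, with a point for each library and a line at the mean of the 2 libraries of a genotype. Both *Pax5* fl/fl Vav-Cre libraries lie above all 6 pro-B libraries in each panel, while the *Pax5* R31Q/- values of *Cd247* and *Id2* are 4.50 to 5.07 and 7.85 to 13.9 TPM, above the *Pax5* +/+ values.

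In *Pax5* R31Q/- pro-B cells, 3 genes of the set passed the test. At an adjusted p under 0.05 from limma, 2 of the 25 tested genes were higher (*Cd247* and *Lck*) and 1 was lower (*Prf1*), where 1.62% of all tested genes were higher and 2.55% lower. By limma, none of the 25 met the 3-fold and 5 TPM conditions, and 8 had an unadjusted p under 0.05, as did 18.8% of all tested genes. The limma-voom test on recovered reads called 1, *Prf1*. By limma, 0.298% of all tested genes were called higher and 0.558% lower. *Cd247* was 3.08-fold above *Pax5* +/+ (difference in log2(TPM + 1) 1.18, standard error 0.19, adjusted p = 0.0178 from limma) and *Lck* 1.56-fold (0.63, standard error 0.10, adjusted p = 0.0131). *Prf1* fell by 1.32 on the same scale (standard error 0.21, adjusted p = 0.0172 from limma). Without either *Pax5* R31Q/- library, none of the 3 passed (adjusted p from 0.104 to 0.16), and without replicate 2 of *Pax5* +/+ 1 gene, *Lck*, did. *Cd247* also lost the threshold without replicate 1 of *Pax5* +/+ (adjusted p = 0.0608) and without the filter on low TPM (adjusted p = 0.0516). *Zap70* also passed, as lower, under median-ratio scaling, quantile normalization and limma-voom (adjusted p = 0.0378, 0.0362 and 0.0293). The median difference of the 25 genes was -0.04 in log2(TPM + 1), against 0.04 for all tested genes. *Trat1* and *Il18r1*, with 0.210 and 0.107 and with 0.601 and 0.538 TPM in *Pax5* R31Q/- libraries, did not pass the test (adjusted p = 0.777 and 0.526 from limma).

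In *Pax5* +/- pro-B cells, which have a single intact allele, no gene of the set passed at an adjusted p under 0.05 in limma or in limma-voom on recovered reads, where limma had 0% of all tested genes higher and 0.0223% lower. At an unadjusted p under 0.05 in limma there were 7 of the 25, against 6.06% of all tested genes. Without overlap, 11 of the 25 lay above *Pax5* +/+ and 5 below (*Cd4*, *Cd8a*, *Gata3*, *Klrd1* and *Prf1*), as did 21.1% and 14.9% of all tested genes. *Lck* and *Lat*, among the 11, lay above by 0.64 (standard error 0.10, adjusted p = 0.0969 from limma) and 1.04 (standard error 0.26, adjusted p = 0.367) in log2(TPM + 1). The median difference of the 25 genes was 0.11, against 0.02 for all tested genes. Between *Pax5* R31Q/- and *Pax5* +/- cells, which both have a single allele that is not null, 0 of the 25 genes passed at an adjusted p under 0.05 in limma or limma-voom, where limma had 0.268% of all tested genes higher and 0.35% lower. At an unadjusted p under 0.05 in limma there were 8, against 8.79% of all tested genes. *Lck* differed by -0.002 in log2(TPM + 1) between them (standard error 0.096). *Cd247* was 0.55 higher in *Pax5* R31Q/- (standard error 0.19, adjusted p = 0.425 from limma).

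**Figure D3:**
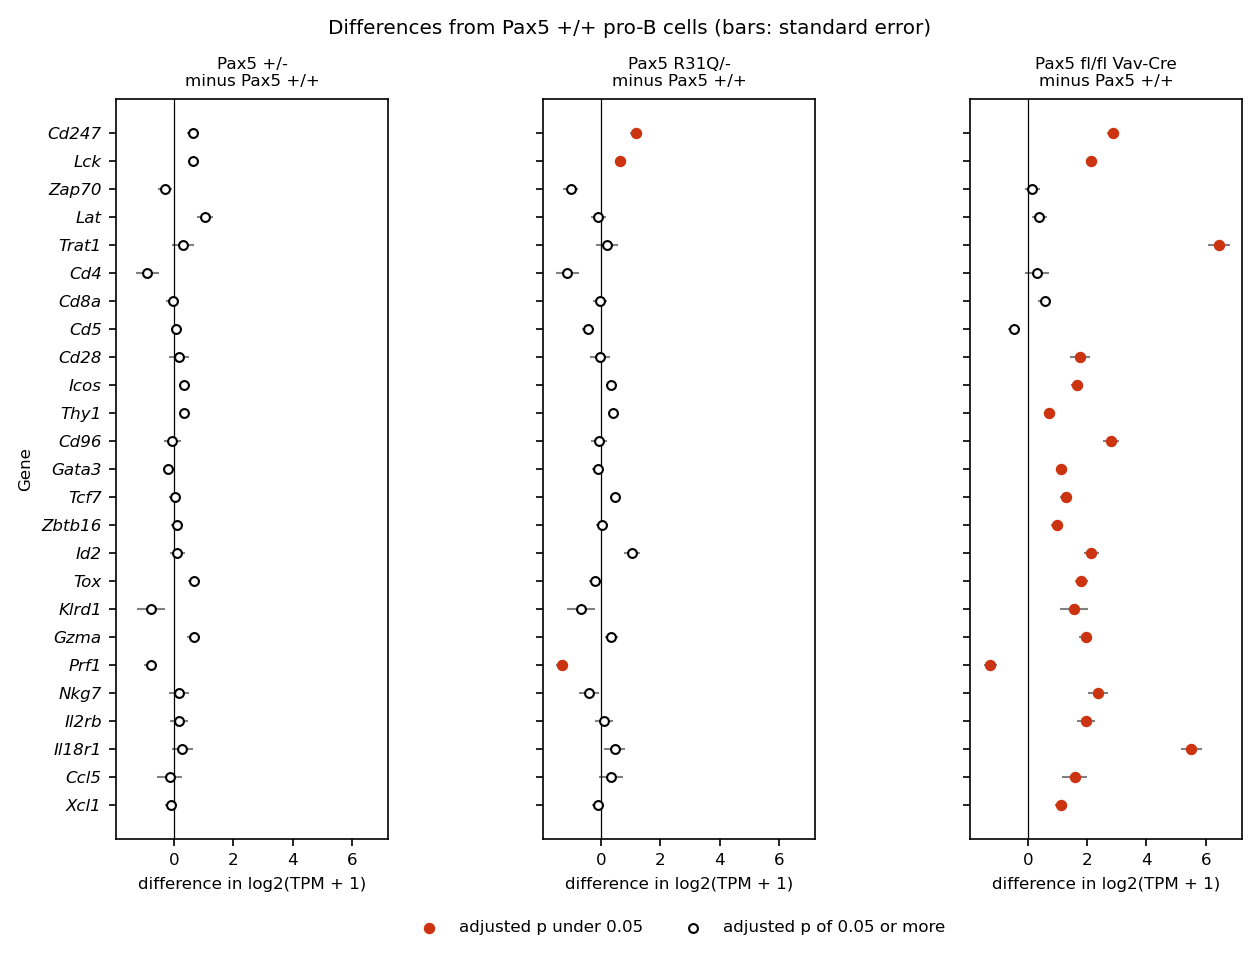
Difference in log2(TPM + 1) from *Pax5* +/+ cells for the 25 tested genes in *Pax5* +/-, *Pax5* R31Q/- and *Pax5* fl/fl Vav-Cre cells, with bars of 1 standard error and filled points at an adjusted p under 0.05 from limma. The points lie around 0 in the first panel, 3 are filled in the second (*Cd247*, *Lck* and *Prf1*), and in the third 20 are filled, 19 of them to the right of 0.

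Set against *Pax5* R31Q/- instead of *Pax5* +/+ cells, *Pax5* fl/fl Vav-Cre cells were higher for 19 of the 25 genes and lower for 0 (limma, adjusted p under 0.05), where 14.7% of all tested genes were higher and 19.9% lower. Of these, 17 were also higher than in *Pax5* +/+ cells, while *Ccl5* and *Thy1* passed against *Pax5* +/+ alone. This comparison shares the *Pax5* fl/fl Vav-Cre libraries with the one against *Pax5* +/+. Genes such as *Trat1*, *Il18r1* and *Xcl1*, tested only because they reached 1 TPM in *Pax5* fl/fl Vav-Cre libraries, could hardly come out lower here. The difference in log2(TPM + 1) was 6.23 for *Trat1*, 5.07 for *Il18r1*, 2.87 for *Cd96*, 2.79 for *Nkg7* and 1.68 for *Cd247*, each at an adjusted p of at most 0.000898. *Id2*, which lay between in *Pax5* R31Q/- cells, was higher in *Pax5* fl/fl Vav-Cre cells by 1.09 (standard error 0.26, adjusted p = 0.0154 from limma), and this was lost without replicate 2 of *Pax5* R31Q/- (adjusted p = 0.0903) or replicate 1 of *Pax5* fl/fl Vav-Cre (adjusted p = 0.0791). *Zap70* and *Cd4*, which did not pass against *Pax5* +/+, were higher than in *Pax5* R31Q/- by 1.18 and 1.45 (adjusted p = 0.00991 and 0.0265 from limma). *Zap70* lost this without replicate 2 of *Pax5* R31Q/- (adjusted p = 0.0807). *Cd4* lost it without any 1 of the 4 libraries compared (adjusted p from 0.0758 to 0.14) and without the filter on low TPM (adjusted p = 0.0594). Leaving out a library gave 13 to 19 genes that passed. *Prf1* differed by 0.04 (standard error 0.21) between them and did not pass.

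Pax5 peaks were uncommon at the start sites of these genes. In wild-type Pax5 cells, 5 of the 36 genes (13.9%) had a peak within 1 kb of an annotated start, namely *Zap70*, *Lat*, *Tcf7*, *Gata3* and *Rora*. Among tested genes the count was 4 of 25 (16%), against 68.2% of the 12893 tested genes found in the RefSeq annotation. The share differed with expression. For genes with a mean of at least 1 TPM in *Pax5* +/+ cells it was 3 of 14 (21.4%) in the set and 72.3% of 11871 among all. Under 1 TPM it was 1 of 11 (9.09%) and 20.4% of 1022. Of the 19 genes that rose in *Pax5* fl/fl Vav-Cre cells, 2 (10.5%), *Tcf7* and *Gata3*, had such a peak, against 54.6% of all 2088 matched genes that rose. With a window of 2.5 kb it was 6 of the 19 (31.6%), against 58.2%. Each peak list stands for 1 library, so these are counts without a replicate check.

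Counted over the gene and 10 kb on either side, 24 of the 36 genes held a wild-type peak. Among tested genes it was 18 of 25 (72%), against 86.4% of all. With a mean of at least 1 TPM in *Pax5* +/+ cells it was 13 of 14 (92.9%) in the set and 88.5% among all, and under 1 TPM it was 5 of 11 (45.5%) and 62.3%. There were 46 such pairs of a gene and a peak, from 44 different peaks, since *Cd3d* and *Cd3g* shared a peak, as did *Klrd1* and *Klrk1*. Of the 46, 23 overlapped a peak of the *Pax5* R31Q/- library, and 12 further peaks were found in the *Pax5* R31Q/- library alone. *Lck* held 5 wild-type peaks, 4 of them shared, the nearest with midpoints at 1764 and -1769 bases from a start. It also held a *Pax5* R31Q/- peak 78 bases after a start that had no wild-type counterpart. *Trat1* held no wild-type peak and a single *Pax5* R31Q/- peak in an intron. *Cd247* held 2 wild-type peaks and 1 *Pax5* R31Q/- peak, none of which overlapped. *Cd96*, *Icos*, *Zbtb16*, *Klrd1* and *Klrk1* each held 1 wild-type peak without a *Pax5* R31Q/- overlap, and *Cd28*, *Gzma*, *Ccl5*, *Xcl1* and *Prf1* held no peak in either library.

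The Pax5 words searched were GCGTGAC and GCGTAAC on both strands, cores of sequences that the paired domain binds. In the central 300 bases of peaks, a word was found in 8.13% of the 15727 wild-type peaks that overlapped a *Pax5* R31Q/- peak and in 1.89% of the 26256 that did not. At these genes it was found in 2 of the 44 wild-type peaks, the shared *Id2* peak and a wild-type peak after the end of *Zap70*. In the 250 bases before a start, a word was found in 2.29% of 32851 annotated promoters. A match describes the letters and is not a measured site.

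**Figure D4:**
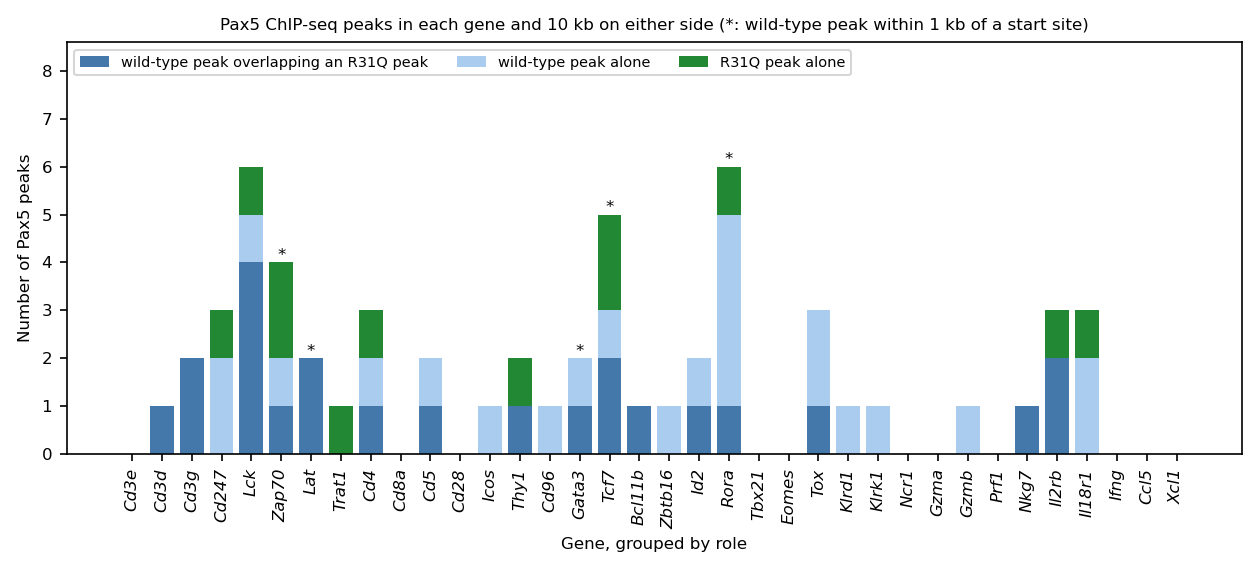
Number of Pax5 ChIP-seq peaks in each of the 36 genes and 10 kb on either side, split into wild-type peaks that overlap an R31Q peak, wild-type peaks alone and R31Q peaks alone, with an asterisk for a wild-type peak within 1 kb of a start. *Lck* and *Rora* hold 5 wild-type peaks each, *Trat1* holds an R31Q peak alone, and 5 genes carry an asterisk.

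The *Pax5* fl/fl Vav-Cre replicates differed in more than depth, and the genes of the set did not all follow the same replicate. Of the 19 genes that rose, 4 (*Klrd1*, *Cd28*, *Il18r1* and *Trat1*) were more than 2-fold higher in replicate 2, at 3.33-, 2.89-, 2.44- and 2.20-fold, and 2 (*Ccl5* and *Nkg7*) more than 2-fold higher in replicate 1, at 2.41- and 2.27-fold. *Lck*, *Tcf7*, *Tox*, *Thy1* and *Gzma* differed by at most 1.10-fold. Of 12 plasmacytoid dendritic cell markers, 9 were higher and 1, *Spib*, lower in *Pax5* fl/fl Vav-Cre than in *Pax5* +/+ cells by limma. Among them were *Cox6a2* (difference in log2(TPM + 1) 3.68), *Siglech* (3.66), *Pacsin1* (2.70) and *Ly6c2* (2.24). None of the 12 was at 0 in every library. *Siglech* had 54.4 and 158 TPM and *Ccr9* 4.45 and 15.4 TPM in replicates 1 and 2 of *Pax5* fl/fl Vav-Cre, in the same order as *Trat1* and *Il18r1*, and 11 of the 12 were higher in replicate 2, as were 72.2% of the 13008 tested genes and 8 of the 19 genes of the set that rose. Their summed level was 3343 to 4093 TPM in the pro-B libraries and 4704 and 4977 TPM in *Pax5* fl/fl Vav-Cre, most of it *Dntt*, which pro-B cells express.

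Of 12 granulocyte and macrophage markers, 2 (*Ctsg* and *Csf1r*) were higher in *Pax5* fl/fl Vav-Cre than in *Pax5* +/+ cells by limma, with differences in log2(TPM + 1) of 3.68 and 1.31, and all 12 were higher in replicate 1 of *Pax5* fl/fl Vav-Cre than in replicate 2, in the same order as *Nkg7* and *Ccl5*. *Mpo* had 132 TPM in replicate 1 and 16.6 TPM in replicate 2, against 22.4 to 30.2 TPM in the pro-B libraries. Their summed level was 3373 and 492 TPM in the *Pax5* fl/fl Vav-Cre libraries and 668 to 2168 TPM in the pro-B libraries. Among T- and NK-cell markers of the set itself, *Cd3e*, *Cd3d*, *Cd3g* and *Ncr1* had 0.585 TPM or less in the *Pax5* fl/fl Vav-Cre libraries and 0.666 TPM or less in the others. *Klrk1* and *Eomes*, also under 1 TPM, had their most reads in both *Pax5* fl/fl Vav-Cre libraries, and *Klrd1*, *Nkg7*, *Gzma*, *Trat1* and *Cd28* rose there. The part of any of these cell types in the values of the 36 genes was not tested, and the genes for the constant regions of the T-cell receptor were not analysed here.

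**Figure D5:**
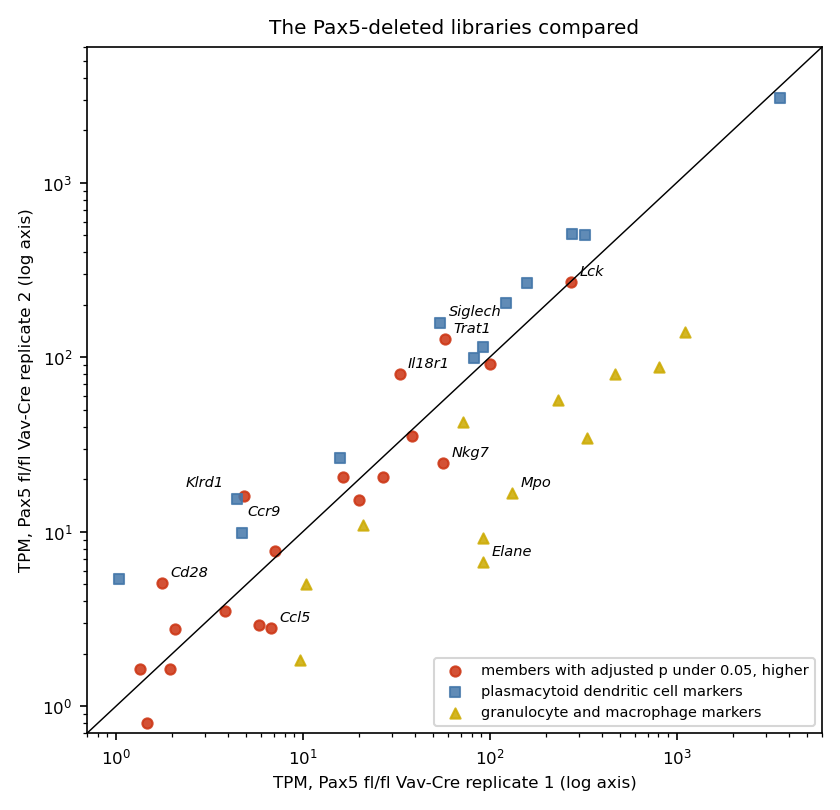
TPM in replicate 2 against replicate 1 of *Pax5* fl/fl Vav-Cre (both log axes) for the 19 genes of the set that rose (circles), 12 plasmacytoid dendritic cell markers (squares) and 12 granulocyte and macrophage markers (triangles), with the line of equal values. The squares lie on or above the line except *Dntt*, all triangles lie below it, and the circles lie on both sides, with *Trat1*, *Il18r1*, *Klrd1* and *Cd28* above and *Nkg7* and *Ccl5* below.

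Other genes of the T-cell receptor pathway, from a list of 20 with 15 tested, moved both ways in *Pax5* fl/fl Vav-Cre cells, with 8 higher, 6 lower and 1 not passing by limma. The largest differences in log2(TPM + 1) were a fall of *Sit1*, an inhibitory adaptor (-3.42, from 79.6 and 130 TPM in *Pax5* +/+ to 6.97 and 10.5 TPM), and rises of *Fyb*, an adaptor that binds the SLP-76 protein (3.27, from 2.98 and 3.51 to 26.8 and 59.4 TPM), *Ctla4*, an inhibitory receptor (2.90), and *Sla2*, an adaptor that dampens receptor signalling (2.86). The gene for SLP-76 itself, *Lcp2*, fell from 15.9 and 17.4 to 3.25 and 1.64 TPM. In *Pax5* R31Q/- cells 4 of the 15 were lower and 0 higher, the lower ones including *Skap1* (-1.25), *Prkcq* (-1.23) and *Sit1* (-1.24). Of 13 tested factors from a list of 14 other T-lineage regulators, 5 were higher and 5 lower in *Pax5* fl/fl Vav-Cre cells, the largest differences being *Lef1* (-5.56, from 537 and 669 to 7.41 and 18.2 TPM), *Id3* (-3.33), *Notch1* (2.09, from 56.8 and 74.7 to 298 and 263 TPM) and *Dtx1* (-1.80). *Lef1*, a relative of *Tcf7*, thus fell where *Tcf7* rose, and *Id3* fell where *Id2* rose.

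Other NK and innate lymphoid genes, from a list of 32 with 30 in the files and 14 tested, were higher in 11 cases and lower in 1 (*Klrb1c*, -1.11) in *Pax5* fl/fl Vav-Cre cells by limma. *Il18rap*, the accessory chain of the IL-18 receptor, had 0.985 and 0.989 TPM in *Pax5* +/+, 1.07 and 2.29 in *Pax5* +/- and 2.32 and 1.76 in *Pax5* R31Q/- libraries. Its *Pax5* fl/fl Vav-Cre values were 67.2 and 77.4 TPM (difference in log2(TPM + 1) 5.20, standard error 0.24, adjusted p = 1.17e-05 from limma). The genes of both chains of this receptor thus rose. *Tyrobp*, the DAP12 adaptor of NK receptors and myeloid cells, rose by 2.73, *Ctsw*, a protease of cytotoxic cells, by 2.34 and *Nfil3*, a factor for innate lymphoid development, by 2.10. In *Pax5* R31Q/- cells 1 of the 14, *Cd244a*, was higher (2.03, adjusted p = 0.0026 from limma), with 25.2 and 21.2 TPM against 4.23 and 5.68 TPM in *Pax5* +/+ and 16.0 and 21.8 TPM in *Pax5* fl/fl Vav-Cre libraries. Of the 30 genes, 7 were at 0 in every library.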

How the data were processed

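RNA-seq was available for 8 libraries and Pax5 ChIP-seq peaks for 2. The authors removed ribosomal reads, aligned single reads to GRCm38 with STAR 2.4.2, assigned uniquely mapping reads to RefSeq genes by featureCounts and deposited TPM. Whether counting used strand is not given in the sources used here, which leaves genes overlapped by another (such as *Cd247*, *Trat1*, *Cd96*, *Tox* and *Tcf7*) uncertain. Peaks, called by the authors with MACS in each library, were deposited as start and end. Whole reads were recovered from the TPM steps for all 18206 genes above 0 in at least 2 libraries (tolerance 0.001 reads). Precision is set by 2 libraries per genotype.

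Differences in log2(TPM + 1), where folds of weakly expressed genes come out too small, were tested with limma 3.58.1 in R 4.3.3 (eBayes with trend, all 4 genotypes in the fit, genes of at least 1 TPM in at least 1 library) and adjusted by Benjamini-Hochberg over 13436 genes. Immunoglobulin genes were not removed. The smallest two-sided p of an exact permutation test of 2 against 2 libraries is 0.333. Replicates were numbered in accession order and not paired. Where a library was left out, the lone library of that genotype was assumed to vary like the other genotypes. Genes are given in full where their adjusted p was under 0.05 against *Pax5* +/+ and their mean exceeded 5 TPM in a genotype, where they encode CD3, CD4 or CD8 chains, or where they were highest in their role; of other lists, up to 4 genes with the largest differences are named. Some genes of these other lists are not reported here. Outside this rule, *Lcp2*, *Klrb1c*, *Ccr9*, *Mpo* and the genes of other lists named in *Pax5* R31Q/- cells were named after their values were seen. The 36 genes and all other lists were chosen by name, with earlier results of these data known. Peaks were assigned to starts in Python 3.11.15 with pysam 0.24.0, overlap being 1 bp. The scripts were tested on simulated data. Fold changes and p-values of the authors were not used.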

Additional observations from a re-analysis of the deposited data

How the results depend on the processing

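Limits are the 2 libraries per genotype, the single ChIP-seq library per peak list and the cell label of the *Pax5* fl/fl Vav-Cre samples. The scaling moved the median of all genes in *Pax5* fl/fl Vav-Cre against *Pax5* R31Q/- from -0.13 to -0.01 (log2). Across all alternatives, 7 to 12 genes were called in *Pax5* fl/fl Vav-Cre against *Pax5* +/+ (8 as reported) and 17 to 23 had an adjusted p under 0.05 (20 as reported). In *Pax5* R31Q/- against *Pax5* +/+, 1 gene, *Prf1*, was called with a pseudocount of 0.1, a fold threshold of 2 or limma-voom on recovered reads, against 0 as reported, and leaving out a library gave 0 to 3 genes at an adjusted p under 0.05, against 3 as reported. In *Pax5* R31Q/- against *Pax5* +/-, 1 gene, *Lat*, passed with only these 2 genotypes in the fit (-1.13, adjusted p = 0.0142 from limma), against 0. With a window of 2.5 kb, 9 of the 36 genes had a wild-type peak at a start, against 5 within 1 kb, the wider window taking in more sequence. Apart from the window, the cause was not tested. Of the values for single genes under an alternative, 933 kept their direction and side of the threshold, 39 lost the threshold, 14 gained it and 0 changed direction. The losses include *Klrd1*, *Ccl5*, *Thy1* and *Zbtb16* in *Pax5* fl/fl Vav-Cre against *Pax5* +/+. No paired analysis was possible because the labels give no replicate numbers.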

Other observations

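Erythroid genes were followed as a further marker list. Of 6 tested genes, 2 were lower in *Pax5* fl/fl Vav-Cre than in *Pax5* +/+ cells by limma, among them *Alas2* (difference in log2(TPM + 1) -2.33), and 1 was higher, *Car2* (1.22). Their summed level was 241 to 413 TPM in the pro-B libraries and 409 and 454 TPM in the *Pax5* fl/fl Vav-Cre libraries, most of it *Car2*, and 3 of the 10 genes in the files, all globins, were at 0 in every library.

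Among the pro-B cell genes that were lower in *Pax5* fl/fl Vav-Cre cells, *Lef1* differed by -5.56, *Cd79a* by -2.76 and *Bst1* by -2.20 in log2(TPM + 1). *Cd93*, an early B-lineage surface protein, was the 1 that was higher (1.60, adjusted p = 0.000215 from limma).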
